A study of Homo sapiens with 18 samples.

Results

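KCP, RGMB, 3 receptors of bone morphogenetic proteins (BMPs) and 5 of their target genes make up the set described here, 10 of the 57820 genes in the count table. They were found by symbol as KCP, RGMB, BMPR1A, BMPR2, ACVR1, ID1, ID2, ID3, SMAD6 and SMAD7. KCP and RGMB were chosen for their fold changes between the siRNA libraries and the control, KCP as a gene that was higher and RGMB as one that was lower, so those fold changes are given as a description, with no test. The other 8 were taken for their place in the pathway. RNA came from MDA-MB-231, a human triple-negative breast cancer line grown in L-15 medium, 72 hours after lipofection of an siRNA. The groups were siRagC1 and siRagC2, both labelled as RagC knock-down, and siCtrl, labelled as wild type, with 6 libraries each. RagC, the product of RRAGC, is a small GTPase that tethers the growth kinase complex mTORC1 to lysosomes, and the series concerns the programme that follows when mTORC1 is off. The labels call the replicates biological and do not say whether they were separate cultures, so a p-value here reflects how far these libraries vary.

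BMPs are secreted ligands that bring together type I and type II serine/threonine kinase receptors on the cell surface. The type I receptor then phosphorylates Smad1, Smad5 and Smad9, which enter the nucleus with Smad4 and switch on target genes. Co-receptors and secreted modulators set how strongly a cell responds, and inhibitory Smads, themselves targets, close a feedback loop. KCP, the kielin/chordin-like protein, is secreted and carries cysteine-rich repeats; in mice it enhances BMP signalling and dampens that of TGF-beta. RGMB, or DRAGON, is a membrane-anchored repulsive guidance molecule that acts as a BMP co-receptor.

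Promoters of all 10 genes were matched in a RefSeq table of GRCh38.p14, which gives 250 bases before to 50 after each start, and the 10 genes had 16 starts. The promoter of KCP is shown because KCP had the largest fold change of the 10, and that of SMAD6 because it alone held the Smad-binding palindrome GTCTAGAC, printed in capitals. The KCP promoter lies at chr7:128910660-128910959 on the minus strand and the SMAD6 promoter at chr15:66701986-66702285 on the plus strand; both read 5′ to 3′.
KCP: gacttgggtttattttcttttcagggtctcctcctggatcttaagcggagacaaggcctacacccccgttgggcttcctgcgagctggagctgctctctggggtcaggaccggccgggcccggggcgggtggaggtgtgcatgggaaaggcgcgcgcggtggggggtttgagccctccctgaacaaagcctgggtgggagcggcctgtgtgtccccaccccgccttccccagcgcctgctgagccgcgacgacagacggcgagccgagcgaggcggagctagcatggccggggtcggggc
SMAD6: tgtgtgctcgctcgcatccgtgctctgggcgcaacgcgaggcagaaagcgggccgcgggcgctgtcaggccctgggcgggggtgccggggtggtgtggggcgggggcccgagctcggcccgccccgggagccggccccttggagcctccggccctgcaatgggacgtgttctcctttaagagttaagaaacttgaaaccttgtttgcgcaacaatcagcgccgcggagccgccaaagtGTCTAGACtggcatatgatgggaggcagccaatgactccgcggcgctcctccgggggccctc
Both strands were searched. The palindrome was in 0.202% of the 35116 promoters in the table and in 1 of the 16 of these genes, 12 bases before the SMAD6 start. GGCGCC, a GC-rich Smad1/5 site, was in 19.2% of all promoters and in 2 of the 16, the BMPR2 promoter and 1 of the 3 of ACVR1. CACGTG, the E-box core of the element bound by TFEB, was in 7.26% of all promoters and in 0 of the 16. None of the 3 motifs contains another, and a match is a description of the letters only.

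Libraries held 14.8 M to 71.6 M counts, with medians of 36.1 M for siRagC1, 24.6 M for siRagC2 and 21.4 M for siCtrl, and the library codes formed 2 series, D1103 (replicates 1 and 2 of each group) and D1221 (replicates 3 to 6). Values are CPM, read counts scaled to library size with TMM factors for composition. Of the markers of this line, VIM averaged between 4340 and 4500 CPM and CD44 between 910 and 973 CPM by group, ESR1 and PGR at most 0.117 CPM, and the epithelial gene CDH1 between 0.891 and 1.37 CPM; EPCAM, at 15.6 to 17.2 CPM, and GATA3, at 8.29 to 8.69 CPM, were not absent, and the leukocyte gene PTPRC was at most 0.470 CPM. RRAGC, the silenced gene, averaged 23.9 ± 7.58 CPM with siRagC1, 27.8 ± 8.30 with siRagC2 and 62.4 ± 2.75 with siCtrl (SD, n = 6 each). The filter left 15307 genes to test, and all 10 members passed it; KCP was over the filter's 0.391 CPM in 6, 6 and 4 libraries of siRagC1, siRagC2 and siCtrl, and ID2 in 2, 4 and 3.

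KCP transcripts were several-fold more abundant in both knock-down groups. In replicates 1 to 6, KCP (ENSG00000135253) had 3.21, 2.82, 1.58, 1.56, 1.69 and 0.901 CPM with siRagC1. With siRagC2 the values were 3.79, 2.35, 1.17, 1.47, 1.68 and 2.14 CPM, and with siCtrl they were 0.616, 0.609, 0.592, 0.235, 0.473 and 0.311 CPM. Every siRNA library was above every control library, and within each siRNA group the D1103 libraries were the highest. The counts behind these values were small, 35 to 132 reads with siRagC1, 25 to 103 with siRagC2 and 5 to 26 with siCtrl. The means were 1.96 ± 0.874 CPM with siRagC1, 2.10 ± 0.931 with siRagC2 and 0.473 ± 0.165 with siCtrl (SD, n = 6 each). The log2 fold change over siCtrl was 2.05 ± 0.23 with siRagC1 and 2.11 ± 0.23 with siRagC2 (SE from edgeR). Against the control of the same number, KCP was 2.66 to 6.61 times as high with siRagC1 and 1.98 to 6.88 times with siRagC2. Groups that do not overlap made up 0.83% of tested genes for siRagC1 and 1.14% for siRagC2; KCP was selected on these contrasts, so nothing is read from its place among them. These are bulk libraries, in which a change in the number of cells that express a gene and a change in RNA per cell cannot be told apart.

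KCP shares part of its locus with other genes. In gene models of GRCh38, exons of KCP overlap those of ATP6V1F, a subunit of the lysosomal proton pump on the opposite strand. They also overlap those of FLNC-AS1, annotated as antisense, which lies on the same strand as KCP. ATP6V1F averaged 55.9 ± 2.96 CPM with siRagC1, 54.5 ± 2.74 with siRagC2 and 50.4 ± 3.40 with siCtrl (SD, n = 6 each). Its log2 fold change was 0.15 ± 0.04 with siRagC1 (SE; adjusted p = 0.0505 in edgeR), against 0.11 ± 0.04 with siRagC2 (adjusted p = 0.113). Summed over libraries, KCP had 3.53% of the reads of ATP6V1F with siRagC1, 3.57% with siRagC2 and 0.978% with siCtrl, so the counts did not keep a fixed ratio. The sources used here do not say whether counting used strand, and without it reads from the overlap with ATP6V1F cannot be told apart. Strand would not separate reads from exons shared with FLNC-AS1. FLNC-AS1 had 8, 13 and 7 reads in all with siRagC1, siRagC2 and siCtrl.

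RGMB transcripts were modestly lower in both knock-down groups. RGMB (ENSG00000174136) had 156, 175, 179, 172, 195 and 212 CPM in siRagC1 replicates 1 to 6. It had 165, 179, 187, 192, 187 and 194 CPM with siRagC2, and 226, 259, 211, 213, 230 and 235 CPM with siCtrl. All siRagC2 libraries were below all controls, while siRagC1 replicate 6 overlapped the lowest control. The means were 182 ± 19.4 CPM with siRagC1, 184 ± 10.7 with siRagC2 and 229 ± 17.7 with siCtrl (SD, n = 6 each). The log2 fold change was -0.34 ± 0.06 with siRagC1 and -0.32 ± 0.06 with siRagC2 (SE). Same-numbered ratios to siCtrl ran from 0.676 to 0.904 with siRagC1 and from 0.689 to 0.904 with siRagC2. Its antisense partner RGMB-AS1 had 107, 99 and 95 reads in all with siRagC1, siRagC2 and siCtrl, groups of unequal depth. Scaled to library size, RGMB-AS1 averaged 0.465 ± 0.128, 0.483 ± 0.203 and 0.562 ± 0.247 CPM in that order (SD). Its log2 fold change was -0.26 ± 0.27 with siRagC1 and -0.23 ± 0.28 with siRagC2 (edgeR, SE, adjusted p = 0.681 and 0.739).

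**Figure D1:**
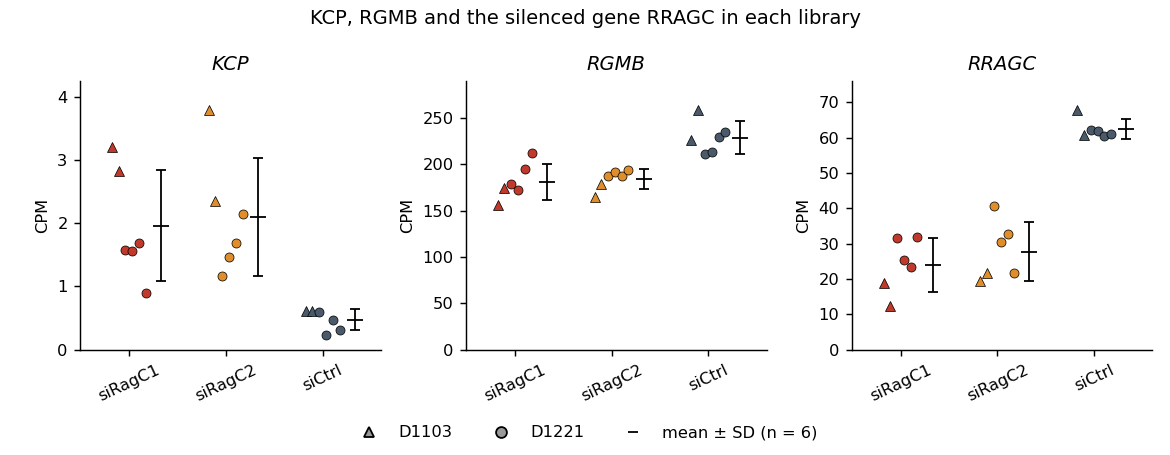
KCP, RGMB and RRAGC in CPM (y axes, from 0) for siRagC1, siRagC2 and siCtrl; each point is a library, triangles are D1103 and circles D1221, and bars are mean ± SD (n = 6). KCP is at least 0.901 CPM in every siRNA library and at most 0.616 CPM in the controls, and RGMB overlaps in siRagC1 replicate 6 alone, at 212 CPM.

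Between the siRNAs, which is not the contrast that chose them, KCP and RGMB could not be separated. KCP had a log2 fold change of -0.06 ± 0.18 for siRagC1 over siRagC2 (SE; adjusted p = 0.974 in edgeR) and RGMB of -0.02 ± 0.06 (adjusted p = 0.972). edgeR called 0% of tested genes between the siRNAs, with 1187 at an unadjusted p under 0.05. That share depended on replicate 6. Without replicate 6 of every group edgeR called 3.35% of tested genes between the siRNAs. It called 0.513% without siRagC1 replicate 6 alone and 0.199% without siRagC2 replicate 6 alone. The sign of either gene turned when single libraries were left out, with KCP between -0.17 and 0.06 and RGMB between -0.07 and 0.02.

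The fold changes of both genes had the same sign in each code series. KCP had log2 fold changes in D1103 of 2.30 ± 0.34 with siRagC1 and 2.29 ± 0.34 with siRagC2, and in D1221 of 1.79 ± 0.32 and 1.90 ± 0.33 (SE; n = 2 and 4 per group). RGMB had -0.55 ± 0.09 with siRagC1 and -0.50 ± 0.09 with siRagC2 in D1103, and -0.23 ± 0.06 and -0.22 ± 0.07 in D1221. RRAGC was also lower in D1103, at 15.6 ± 4.58 CPM with siRagC1 and 20.4 ± 1.58 with siRagC2 (n = 2 each), against 28.1 ± 4.38 and 31.4 ± 7.78 in D1221 (n = 4 each); its part in the difference was not tested. The fitted difference between series in the RGMB effect was -0.32 ± 0.11 with siRagC1 and -0.27 ± 0.11 with siRagC2. It did not pass edgeR's test of the interaction (unadjusted p = 0.00979 and 0.0247, adjusted p = 1.00 and 0.735). That test called 0% of genes for either siRNA (310 and 1019 at an unadjusted p under 0.05). The difference for KCP was 0.50 ± 0.50 with siRagC1 and 0.39 ± 0.51 with siRagC2 (adjusted p = 1.00 and 0.868).

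**Figure D2:**
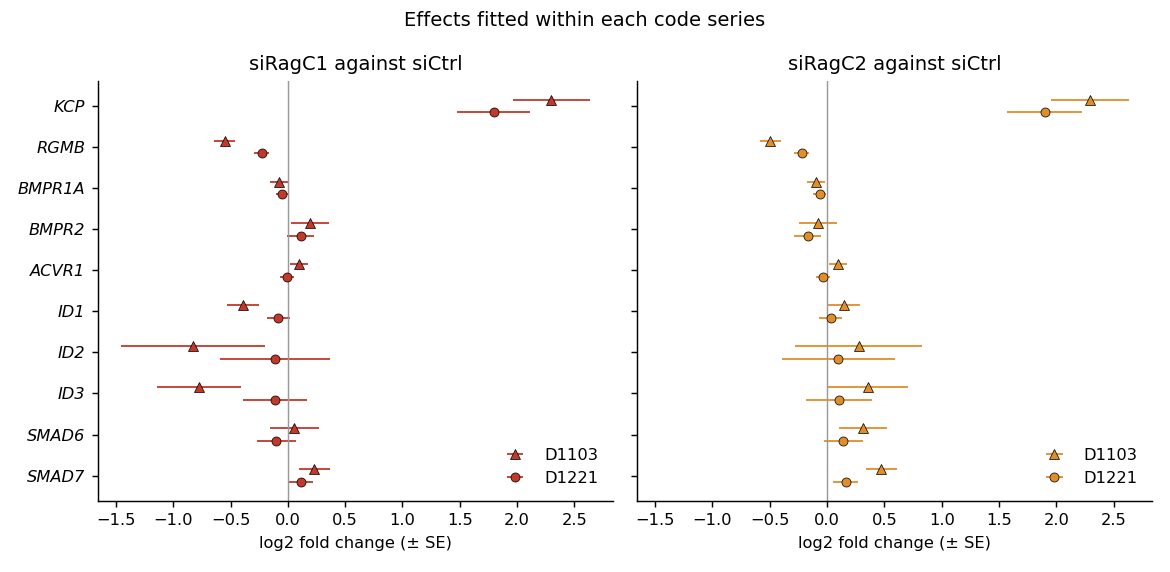
Log2 fold change over siCtrl ± SE (x axes) of the 10 genes, fitted in D1103 (triangles) and D1221 (circles), for siRagC1 at left and siRagC2 at right. KCP lies between 1.79 and 2.30 and RGMB between -0.55 and -0.22 in all 4 fits, while the other genes lie between -0.83 (ID2, siRagC1 in D1103) and 0.47 (SMAD7, siRagC2 in D1103).

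KCP was also set against the depth of the knock-down. Over the 12 siRNA libraries, after the mean of each group within each series was removed, KCP and RRAGC had a Pearson r of -0.587 and a Spearman rho of -0.58 (permutation test, p = 0.0503, adjusted p = 0.101 over this relation and that of RGMB, both added after the values were seen). Without the 2 libraries farthest from the median of RRAGC, r was -0.313. Leaving them out narrows the range of RRAGC, so the drop alone cannot say how far the relation rests on them. In D1221 alone, r was -0.776 over 8 libraries (permutation p = 0.0389, adjusted p = 0.0778) and -0.578 without the 2 farthest. RGMB with RRAGC had r = -0.173 (permutation p = 0.609). None passed adjustment.

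**Figure D3:**
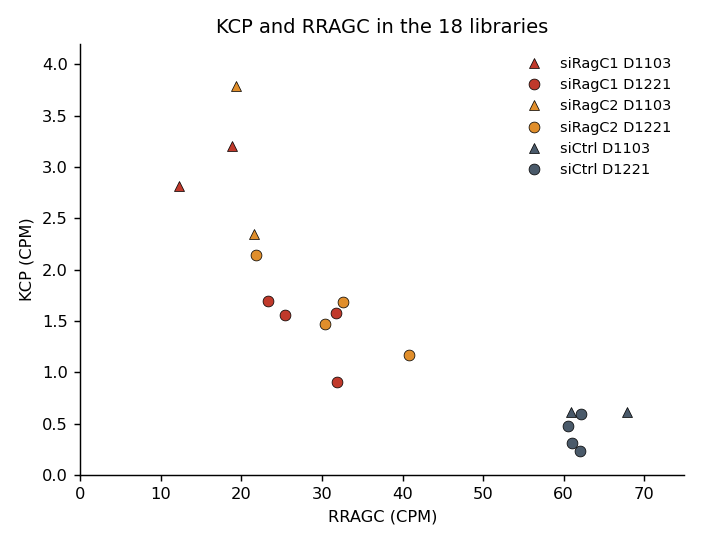
KCP against RRAGC in CPM (both axes from 0) in the 18 libraries, coloured by siRNA, with triangles for D1103 and circles for D1221. The siRNA libraries hold RRAGC of 12.3 to 40.8 CPM and KCP of 0.901 to 3.79 CPM, and the siCtrl libraries RRAGC of 60.6 to 67.9 CPM and KCP of 0.235 to 0.616 CPM.

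The receptors did not pass the threshold with either siRNA. BMPR1A, a type I receptor, had a lowest, median and highest value of 35.8, 36.9 and 39.4 CPM with siRagC1, 34.3, 37.0 and 38.4 with siRagC2, and 35.7, 38.4 and 41.4 with siCtrl. ACVR1, another type I receptor, had 34.6, 36.2 and 37.1 CPM with siRagC1, 32.7, 35.9 and 38.1 with siRagC2, and 32.6, 35.8 and 37.3 with siCtrl. BMPR2, the type II receptor of BMPs, had 84.5, 89.1 and 144 CPM with siRagC1, 68.4, 83.0 and 88.9 with siRagC2, and 73.6, 89.7 and 108 with siCtrl. For all 3 the groups overlap, and a single library, siRagC1 replicate 4, stood high in BMPR2. BMPR1A had log2 fold changes of -0.06 ± 0.04 and -0.08 ± 0.04, and ACVR1 of 0.03 ± 0.05 and 0.01 ± 0.05, with siRagC1 and siRagC2 (edgeR, adjusted p from 0.374 to 0.946). BMPR2 had 0.14 ± 0.09 with siRagC1 and -0.14 ± 0.09 with siRagC2 (adjusted p = 0.455 and 0.459) and 0.28 ± 0.09 for siRagC1 over siRagC2, with siRagC1 above in 6 of 6 same-numbered pairs (unadjusted p = 0.00593, adjusted p = 0.413). With replicate 4 left out in every group, the siRagC1 value for BMPR2 was -0.0029.

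The Id proteins lack a DNA-binding region and hold back the transcription factors they pair with; their genes are classic direct BMP targets. ID1 had a lowest, median and highest value of 39.2, 46.7 and 65.4 CPM with siRagC1, 38.4, 53.9 and 91.4 with siRagC2, and 44.3, 48.3 and 89.8 with siCtrl. ID3 had 6.70, 8.29 and 14.8 CPM with siRagC1, 8.50, 13.8 and 24.8 with siRagC2, and 8.61, 11.7 and 21.4 with siCtrl. ID2 was sparse, at 0.0433, 0.307 and 0.547 CPM with siRagC1, 0.304, 0.512 and 0.625 with siRagC2, and 0.211, 0.375 and 0.719 with siCtrl. In each the groups overlap. ID1 was higher in D1103 than in D1221 in every group, averaging 60.9 ± 6.42 and 43.8 ± 3.74 CPM with siRagC1, 88.4 ± 4.21 and 47.6 ± 7.82 with siRagC2, and 80.0 ± 13.8 and 46.4 ± 2.52 with siCtrl (SD, n = 2 and 4). The log2 fold change of ID1 was -0.19 ± 0.09 with siRagC1 and 0.07 ± 0.09 with siRagC2 (SE; edgeR, adjusted p = 0.304 and 0.745). ID3 had -0.33 ± 0.24 and 0.21 ± 0.24 (adjusted p = 0.505 and 0.715) and ID2 -0.35 ± 0.37 and 0.16 ± 0.36 (adjusted p = 0.686 and 0.865). For siRagC1 over siRagC2, ID1 had -0.26 ± 0.09 (unadjusted p = 0.00988, adjusted p = 0.477) and ID3 had -0.54 ± 0.24 (adjusted p = 0.612).

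The inhibitory Smads, SMAD6 and SMAD7, block receptor-activated Smads and are induced as feedback. SMAD7 had 9.71, 11.9 and 13.9 CPM with siRagC1, 9.77, 12.1 and 16.2 with siRagC2, and 8.86, 10.6 and 12.2 with siCtrl (lowest, median and highest). SMAD6 had 2.48, 3.36 and 4.21 CPM with siRagC1, 3.24, 3.68 and 5.77 with siRagC2, and 2.54, 3.52 and 4.18 with siCtrl. The groups overlap in both, and the D1103 libraries of siRagC2 were the highest for SMAD7. SMAD7 had a log2 fold change of 0.16 ± 0.09 with siRagC1 (SE; adjusted p = 0.346 in edgeR) and 0.28 ± 0.09 with siRagC2, higher in 6 of 6 same-numbered pairs (unadjusted p = 0.00378, adjusted p = 0.0769). With the replicate number as a block over all groups, the SMAD7 change was 0.27 ± 0.08 (adjusted p = 0.0397 in edgeR). With the code series removed, correlations of same-numbered siRagC2 and siCtrl libraries ran from -0.038 to 0.204. Pairing beyond the series was thus not shown in every pair. SMAD7 also passed with DESeq2 (adjusted p = 0.0344) and limma-voom (adjusted p = 0.0313). Of all tested genes these fits called 6.44% with the block, 6.57% with DESeq2 and 4.91% with limma-voom. Within series it was 0.47 ± 0.14 in D1103 and 0.16 ± 0.11 in D1221, with adjusted p = 0.735 for the difference. SMAD6 had -0.04 ± 0.13 with siRagC1 and 0.21 ± 0.13 with siRagC2 (adjusted p = 0.917 and 0.411).

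**Figure D4:**
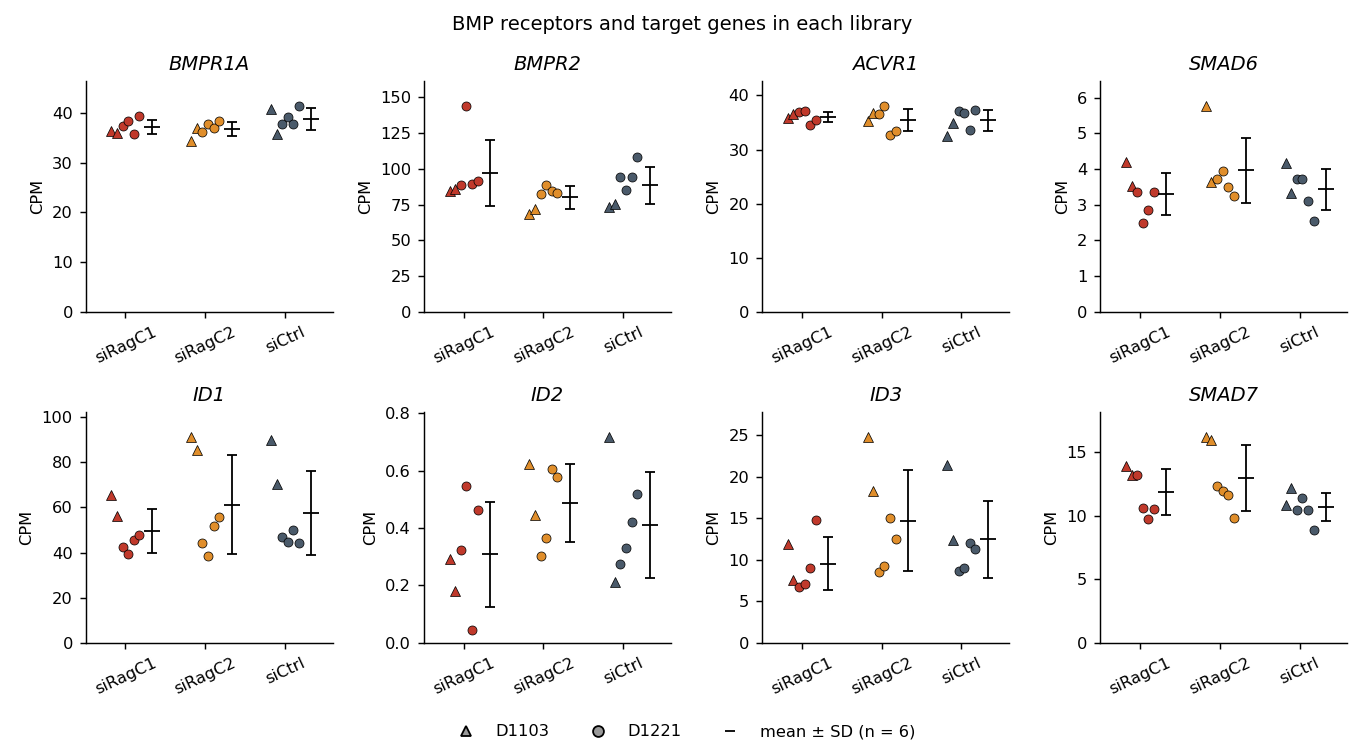
The 3 receptors and 5 targets in CPM (y axes, from 0) for siRagC1, siRagC2 and siCtrl, with points for libraries (triangles D1103, circles D1221) and bars for mean ± SD (n = 6). The groups overlap in every panel, and ID1 is higher in D1103 in all 3 groups.

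Read together, 0 of the 8 receptors and targets passed the threshold with siRagC1 and 0 with siRagC2, where edgeR called 2.04% and 3.23% of all tested genes, and 0 of 8 between the siRNAs. At an unadjusted p under 0.05 there were 0 of 8 with siRagC1, 1 with siRagC2 (SMAD7) and 3 between the siRNAs (BMPR2, ID1 and ID3), against 17.1%, 18.5% and 7.75% of all tested genes. The 5 targets had a median log2 fold change of -0.19 with siRagC1, with 1 positive, and of 0.21 with siRagC2, with 5 positive; over all tested genes the medians were 0.0051 and 0.0047. For siRagC1 over siRagC2 the median of the 5 was -0.26, with 0 positive, where 49.7% of all tested genes were positive. That contrast is not independent of the comparisons with siCtrl, and both of those share the 6 control libraries. How many of all tested genes changed the same way in 6 of 6 same-numbered pairs was not counted, so nothing is read from such pairs, here or below. With the replicate block, 1 of the 8 was called with siRagC2, SMAD7, against 6.44% of all genes. The test limits what can be seen in ID2, ID3 and SMAD6. Their standard errors against siCtrl reached 0.37, 0.24 and 0.13 in that order.

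Whether receptors and targets varied with KCP or RGMB between replicates of one condition was asked with 16 relations over the 18 libraries, after the mean of each group within each series was removed. Pearson r ran from -0.397 to 0.294 and Spearman rho from -0.437 to 0.362, and 0 relations passed (permutation test with 100000 resamples, lowest adjusted p = 0.934). Within D1221 r ran from -0.508 to 0.773, with 0 passing; the highest was ID3 with RGMB (r = 0.773, permutation p = 0.0112, adjusted p = 0.179). D1103 holds 2 libraries per group, and r there ran from -1 to 0.913; even r = -1 had a permutation p of 0.252, so no relation could pass there. Without the 2 libraries farthest from the median of KCP or RGMB, r ran from -0.837 to 0.545 and 0 passed. SMAD6 with RGMB had r = -0.371 over all libraries and -0.837 without those 2 (permutation adjusted p = 0.0603), and BMPR2 with RGMB turned in sign, with r = -0.223 and 0.527. Among the targets themselves, 10 relations added after the values were seen, ID3 with ID1 had r = 0.770 and rho = 0.804 (permutation p = 0.00567, adjusted p = 0.0567), 0.86 without the 2 farthest libraries, and 0.687 within D1221 (adjusted p = 0.176).

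The rest of the BMP pathway was read from a list of 66 further genes, of which 65 matched the table and 38 were tested. Of these, 0 were higher and 2 lower with siRagC1, 0 higher and 1 lower with siRagC2, and 0 differed between the siRNAs; at an unadjusted p under 0.05 there were 7, 9 and 5, or 18.4%, 23.7% and 13.2% of the list, against 17.1%, 18.5% and 7.75% of all tested genes. The median log2 fold change was 0.03 with siRagC1 and 0.07 with siRagC2. SMURF2, a ubiquitin ligase that removes Smads and receptors, averaged 292 ± 13.6 CPM with siRagC1, 290 ± 14 with siRagC2 and 327 ± 15.6 with siCtrl (SD, n = 6 each). It fell by 0.16 ± 0.04 with siRagC1 (SE; adjusted p = 0.0483 in edgeR) and by 0.17 ± 0.04 with siRagC2 (adjusted p = 0.0255), in 6 of 6 same-numbered pairs with each. CRIM1, a membrane protein with cysteine-rich repeats that binds BMPs, averaged 387 ± 83.2 CPM with siRagC1 and 448 ± 66.8 with siCtrl, and fell by 0.23 ± 0.06 (adjusted p = 0.0465), lower in 6 of 6 pairs. These calls were near the threshold. When each of the 18 libraries was left out in turn, SMURF2 was called in 5 cases with siRagC1 and in 15 with siRagC2, where it was lost without siRagC2 replicate 1 or 5 or siCtrl replicate 2. CRIM1 was called in 4 of 18.

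By role, 6 tested ligands had 0 genes past the threshold with either siRNA. BMP4 averaged 90.8 ± 28.3 CPM with siRagC1, 106 ± 30.0 with siRagC2 and 102 ± 35.5 with siCtrl. BMP2 had a log2 fold change of -0.10 ± 0.13 with siRagC1 and -0.39 ± 0.14 with siRagC2 (SE; edgeR, adjusted p = 0.748 and 0.118). Of 10 antagonists and modulators, CRIM1 passed with siRagC1 and had -0.17 ± 0.06 with siRagC2 (adjusted p = 0.109). Follistatin (FST), which binds activins and BMPs, had -0.33 ± 0.11 and -0.35 ± 0.12 (adjusted p = 0.125 and 0.0982), and BMP1, a protease that cleaves chordin, 0.07 ± 0.08 and 0.26 ± 0.08 (adjusted p = 0.684 and 0.0611). Neither the 6 receptors and co-receptors nor the 7 further targets had a gene past the threshold. Of those 7 targets, 5 were positive with siRagC1 (median log2 fold change 0.27) and 7 with siRagC2 (0.32). Over all tested genes 51.7% were positive with each siRNA. ID4, HEY1, MSX2 and DLX2 averaged at most 0.883 CPM. RUNX2, at 77 CPM, had 0.13 ± 0.05 with each siRNA (adjusted p = 0.145 and 0.125 in edgeR). DLX2, a homeobox target, averaged 0.424 ± 0.152 CPM with siRagC1, 0.530 ± 0.168 with siRagC2 and 0.262 ± 0.0921 with siCtrl. Its log2 fold changes were 0.66 ± 0.29 and 0.99 ± 0.29. DLX2 passed the filter through the siRNA groups, since its highest siCtrl library held 0.352 CPM, so no call is read from it. It is also among the list genes counted above at an unadjusted p under 0.05 with each siRNA. With the replicate block, 7 of the 38 list genes were called with siRagC2, where the block called 6.44% of all genes. They were BMP2, FST, BMPER, CRIM1, BMP1, SMURF2 and DLX2, the last not read for the reason given. The genes of the TGF-beta arm, 14 tested, had 0 past the threshold with either siRNA. At an unadjusted p under 0.05 there were 2 with siRagC1 and 4 with siRagC2. These were 14.3% and 28.6% of the list, against 17.1% and 18.5% of all tested genes. TGFB3, a ligand, averaged 2.69 ± 0.413 CPM with siRagC1, 3.29 ± 0.473 with siRagC2 and 2.47 ± 0.179 with siCtrl. All 6 siRagC2 libraries of TGFB3 were above the controls (log2 fold change 0.41 ± 0.12, edgeR adjusted p = 0.0588). Groups did not overlap in 1.14% of tested genes for siRagC2, and TGFB3 was picked after its values were seen. CCN2, a matrix protein and TGF-beta target, had -0.50 ± 0.13 and -0.40 ± 0.13 (adjusted p = 0.0548 and 0.0994). TGFBR1, a type I receptor of TGF-beta, had 0.20 ± 0.06 with siRagC1, above siCtrl in 6 of 6 same-numbered pairs, and 0.14 ± 0.06 with siRagC2 (edgeR, adjusted p = 0.0811 and 0.211). With the block, TGFBR1 and CCN2 were called with siRagC1, where it called 5.64% of all genes. TGFB3 and CCN2 were called with siRagC2, where the block called 6.44%.

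**Figure D5:**
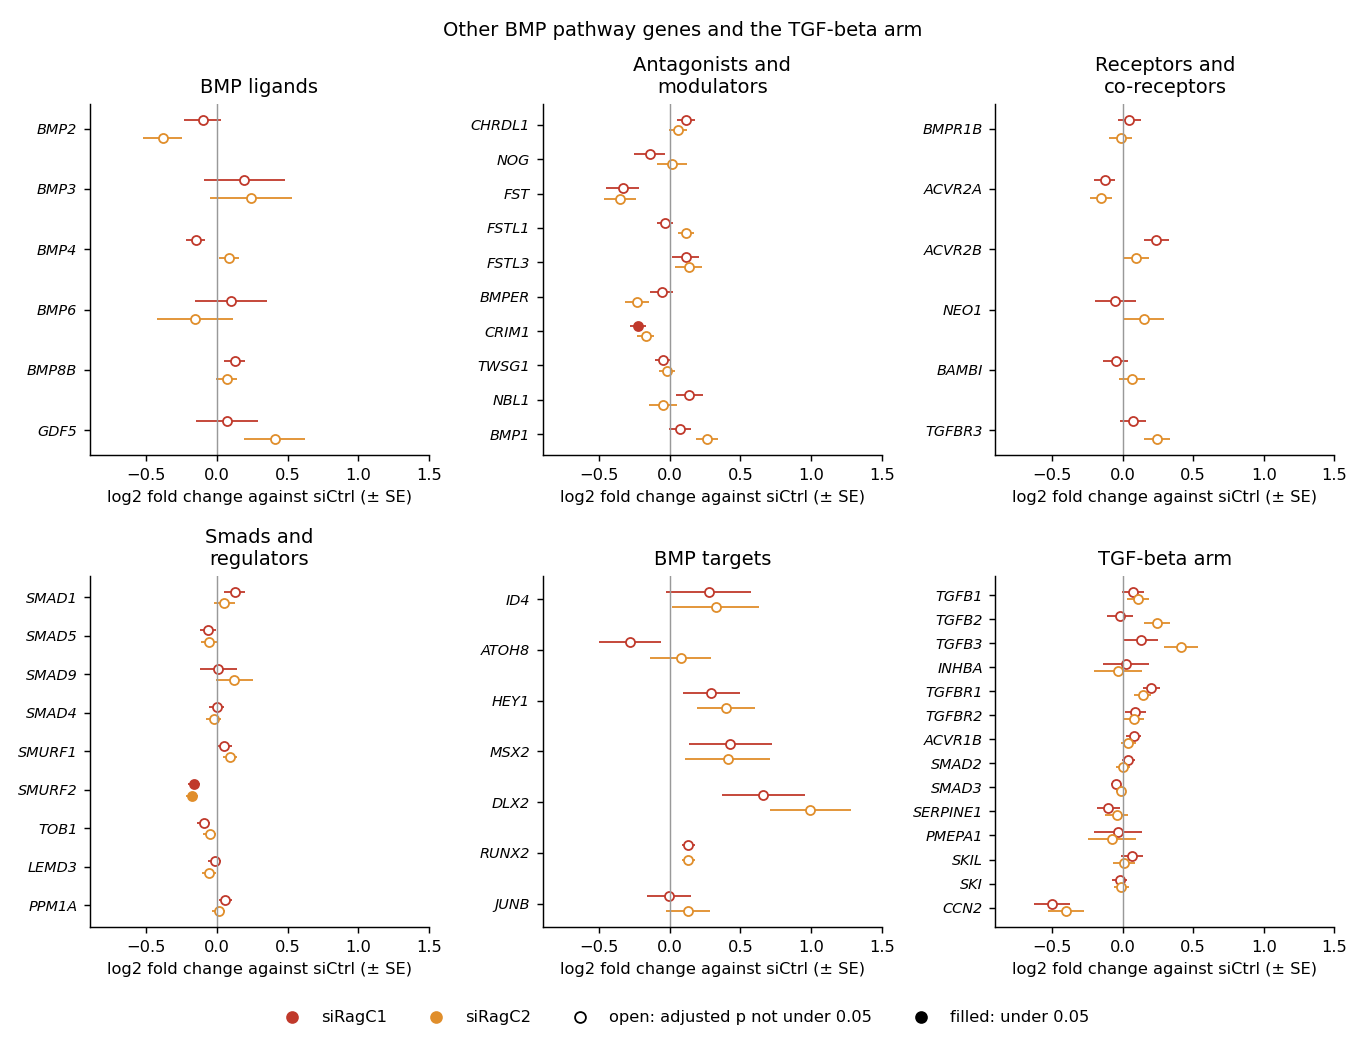
Log2 fold change over siCtrl ± SE (x axes) for the tested genes of the BMP pathway list, in 5 panels by role, and of the TGF-beta arm; siRagC1 is drawn above siRagC2 for each gene, and filled points have adjusted p under 0.05. SMURF2 is filled for both siRNAs and CRIM1 for siRagC1, all below 0.

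The genes whose levels most resembled those of KCP and RGMB were ranked by Pearson r of log2 CPM over the 18 libraries, a description with no test, since libraries share groups and series. Of 10873 genes, those nearest KCP were TIMP2, an inhibitor of metalloproteinases (r = 0.926), RTN4RL2 (0.916) and CSPG4, a cell-surface proteoglycan (0.910). Those with the most opposite pattern were HBEGF, an EGF-family growth factor (-0.959), PRMT5, an arginine methyltransferase (-0.951) and RRAGC (-0.918). TIMP2 averaged 644 ± 27.5 CPM with siRagC1, 671 ± 36.0 with siRagC2 and 555 ± 21.5 with siCtrl (SD, n = 6 each). Of 10872 genes, those nearest RGMB were EXOSC2 (0.902), CCN2 (0.893) and PCNA (0.876), and among the most opposite were ASAH1, the acid ceramidase (-0.923), and PHYH (-0.900). ASAH1 averaged 85.8 ± 7.82 CPM with siRagC1, 84.4 ± 5.37 with siRagC2 and 67.7 ± 2.37 with siCtrl.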

How the data were processed

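RNA-seq of 18 MDA-MB-231 libraries (500 ng total RNA each, per the labels) was deposited by the authors as raw counts per gene. Per the submitters' processing notes, the tools were STAR 2.7.6a and cutadapt 0.6.2 and the build hg19 (GRCh37); the counter, strand setting and annotation are, for this table, not given in the sources used here. Groups and replicate numbers came from the labels and code series from the library codes, whose meaning is not given. Replicates were compared pairwise and no library repeated another.

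Counts were fitted in R 4.3.3 with edgeR 4.0.16 (all 18 libraries, terms for group and code series, TMM factors, genes kept by filterByExpr, robust quasi-likelihood test). Benjamini-Hochberg adjustment ran over 15307 genes and the threshold was 0.05. The fits were also run on simulated data in which each library was drawn independently. How often changes as small as those of the receptors and targets are found is not shown here. Members and lists were chosen with earlier results of these data known. Named were the 10 members, list genes past the threshold, RRAGC and overlapping genes. The 3 most and 3 least alike genes with a mean of at least 5 CPM were also named. Outside this rule, markers and the other genes called with the replicate block were chosen after their values were seen. So were BMP4, BMP2, FST, BMP1, DLX2, ID4, HEY1, MSX2, RUNX2, TGFB3 and TGFBR1. Values for 1 further gene under this rule are not reported here.

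Same-numbered libraries deviated together: their correlations ran from 0.116 to 0.492 for siRagC2 with siCtrl and from 0.221 to 0.582 for siRagC1 with siRagC2, every pair over 0.1, but from 0.076 for siRagC1 with siCtrl. With the code series removed they ran from -0.075 to 0.299. Relations used log2 CPM with a prior count of 2. Also run were upper-quartile and RLE factors, no filter, 5 CPM in 6 libraries, DESeq2 1.42.0, limma-voom (limma 3.58.1), the replicate block, no series term, compared groups alone, each series alone, each replicate or library left out, and adjusted p under 0.01.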

Additional observations from a re-analysis of the deposited data

Results flagged for a closer look

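In 3 of the 30 groups of 6 libraries examined for the 10 genes, a single library stood apart from the rest of its group by more than 0.625 of the group's range; about 1 group in 20 does so by chance. BMPR2 had 144 CPM in siRagC1 replicate 4, with 91.5 CPM as the nearest value of that group (gap over range 0.881). SMAD6 had 5.77 CPM in siRagC2 replicate 1, with 3.94 CPM next (0.723). ID3 had 21.4 CPM in siCtrl replicate 1, with 12.4 CPM next (0.704). The SMAD6 and ID3 libraries belong to code series D1103, and the BMPR2 library to D1221.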

How the results depend on the processing

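KCP stayed higher and RGMB lower with both siRNAs under every alternative run that kept the gene (KCP did not pass 5 CPM in 6 libraries), KCP between 1.79 and 2.34 and RGMB between -0.55 and -0.22 in log2 fold change. The receptors and targets had 0 genes past the threshold with siRagC1 except 1 with no filter (ID3). With siRagC2 they had 1, SMAD7, with no filter, DESeq2, limma-voom, the replicate block and D1103 alone, and 0 to 1 with a library or replicate number left out (1 without replicate 6 of every group, or of siRagC2). Of all tested genes, 6.64% were called with siRagC2 without replicate 6 of every group, and 4.14% without that of siRagC2. Between the siRNAs the receptors and targets had 3 calls with no filter (BMPR2, ID1 and ID3) and 1 in D1103 alone (BMPR2). For the BMP pathway list with siRagC1, the 2 calls became 1 with upper-quartile factors, 5 CPM in 6 libraries and D1103 alone, 3 with the replicate block (FST, CRIM1 and SMURF2), 4 with no filter, 0 without the series term, with the compared groups alone, in D1221 alone and at an adjusted p under 0.01, and 0 to 3 with libraries left out. With siRagC2 the 1 call became 7 with no filter and with the replicate block, 3 with DESeq2, limma-voom and D1103 alone, 0 without the series term, in D1221 alone and at 0.01, and 0 to 6 with libraries left out. The 7 included DLX2 in both cases, from which no call is read. Between the siRNAs this list had 1 with no filter and in D1103 alone, and 0 to 3 with libraries left out. The TGF-beta arm had with siRagC1 2 calls with no filter, DESeq2 and the replicate block (TGFBR1 and CCN2), 1 with 5 CPM and limma-voom, and 0 to 2 with libraries left out; with siRagC2 2 with no filter, DESeq2, the block and D1103 alone, 1 with limma-voom, and 0 to 2 with libraries left out; between the siRNAs 1 with no filter and 0 to 1 with libraries left out. The share of all genes called moved too: with siRagC1 and siRagC2 it was 0.00666% for each in D1221 alone, 0.0457% and 0.124% without the series term, 5.64% and 6.44% with the block, 5.08% and 6.57% with DESeq2 and 3.43% and 7.1% in D1103 alone. With no filter the share was 2.57% and 2.71%, and with limma-voom 3.21% and 4.91%. Between the siRNAs it was 0.704% with no filter and 1.43% in D1103 alone. With libraries or replicate numbers left out, the share ran from 0.226% to 7.61% with siRagC1 and from 0.279% to 6.64% with siRagC2. Between the siRNAs it then ran from 0% to 3.35%. The lowest shares against siCtrl came without replicate 1 of every group, and the highest of all 3 comparisons without replicate 6. The cause of these moves was not tested. Signs turned for KCP between the siRNAs (0.0083 with limma-voom, 0.0107 in D1103), SMAD6 with siRagC1 (0.0607 in D1103) and ACVR1 in D1221 (-0.0076 with siRagC1, -0.036 with siRagC2). With libraries left out, values ran from -0.179 to 0.1238 for KCP, from -0.0668 to 0.0163 for RGMB and from -0.0018 to 0.0395 for ACVR1 between the siRNAs, from -0.1094 to 0.0506 for SMAD6 and from -0.0029 to 0.2138 for BMPR2 with siRagC1, and from -0.0138 to 0.0375 for ACVR1 and from -0.0714 to 0.4722 for ID2 with siRagC2. The series interactions and the 16 relations had 0 past the threshold under every alternative run; in D1103 alone no relation could pass. With 5 to 26 KCP reads per siCtrl library and as few as 1 ID2 read, depth limits both genes.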
